A study of Mus musculus with 42 samples.

Results

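Genes of lipid droplets and lipolysis were followed in mouse bone-marrow-derived macrophages (BMDM). The set held 10 genes, Plin2, Plin3, Hilpda, G0s2, Pnpla2, Lipe, Dgat1, Dgat2, Lpl and Angptl4, taken by symbol from the 37310 gene identifiers of the count table. All 10 matched an identifier. Of these, 9 had enough reads to be tested, and G0s2, with 0 to 10 counts per library, is given by its counts.

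A lipid droplet is a store of triacylglycerol and sterol ester under a coat of perilipin proteins, PLIN2 and PLIN3 in most cells that are not adipocytes. The last step of triacylglycerol synthesis is made by DGAT1 and DGAT2, and its breakdown starts with adipose triglyceride lipase (PNPLA2) and goes on with hormone-sensitive lipase (LIPE), while G0S2 and HILPDA inhibit PNPLA2. Lipoprotein lipase (LPL), which macrophages secrete, releases fatty acids from triacylglycerol in lipoproteins outside the cell, and ANGPTL4 inhibits it. Fatty acids are ligands of the peroxisome proliferator-activated receptors (PPARs), of which Plin2, Angptl4 and Cpt1a are textbook target genes.

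The libraries came from BMDM of mice labelled WT or KO for interferon regulatory factor 5 (Irf5), a transcription factor of inflammatory signalling, and the study asked how IRF5 shapes macrophage metabolism under lipid and bacterial stimuli. KO stands for a myeloid deletion, made according to the methods with floxed Irf5 alleles and Cre recombinase expressed from the Lyz2 locus (LysM-Cre), and WT stands for mice called wild-type, whose Cre and floxed alleles are not stated. The mice were males on a C57BL/6 background, and bone marrow cells of both genotypes were differentiated in medium conditioned by L929 cells, a fibroblast line that secretes the macrophage growth factor CSF1. In each genotype there were Control cells at 0, 2 and 24 h, cells given palmitate, a saturated fatty acid, for 2 or 24 h, and cells given LPS, a bacterial ligand of TLR4, for 2 or 24 h, with 3 libraries in each of these 14 groups (42 libraries). Palmitate was dissolved in ethanol and carried on albumin, and whether Control cells received this vehicle is not stated. No source says that the libraries of a group came from separate mice, so the p-values measure the spread between these libraries only.

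Total counts lay between 2848793 and 7743442 per library. Levels are CPM, counts divided by the TMM-scaled library total and given as a rate, and adjusted p-values are from the edgeR quasi-likelihood F test over 11624 genes, with 1 mean per group and Benjamini-Hochberg adjustment, and called means an adjusted value under 0.05. LPS at 2 h raised Tnf, an early target of TLR4, to a mean of 1988 CPM in WT and 1906 CPM in KO, from 72.9 and 76.0 CPM in Control. Irf5 was not lower in the 21 libraries labelled KO, which held 267 to 430 CPM, than in the 21 labelled WT, which held 210 to 389 CPM, it was called higher in KO in 4 of 7 conditions, and a count over the whole gene does not show the loss of single exons. Lyz2, whose locus carries Cre, separated the labels within each condition, with all KO libraries below all WT libraries, at 4682 to 8766 CPM against 8025 to 14587 CPM. All genotype statements therefore refer to the label. The macrophage markers Adgre1, Csf1r, Cd68, Mertk, Itgam and Fcgr1 were tested (6 of 6), with a summed level of 4710 to 8747 CPM. Of 7 adipocyte markers, Adipoq, Lep and Plin1 among them, 0 passed the filter on low counts, and their sum reached at most 0.437 CPM.

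Per kilobase of exon sequence, Lpl had the highest median level of the set. The median level over the 42 libraries was 313 CPM per kb for Lpl and 94.1 CPM per kb for Plin2. Pnpla2 followed at 31.2 CPM per kb and Plin3 at 17.4 CPM per kb. Lipe stood at 2.63, Dgat1 at 2.52, Hilpda at 1.49 and Angptl4 at 1.17 CPM per kb, and G0s2 and Dgat2 were lowest at 0.625 and 0.301 CPM per kb. The ranges of Plin2, Pnpla2, Plin3 and Lipe did not overlap between neighbours, whereas those of Lpl and Plin2, and those of the 6 genes from Lipe downwards, did. The coat gene Plin2 thus exceeded Plin3 in every group, with a per-kb ratio between 3.43 ± 0.529 (SD, n = 3) in Control at 24 h labelled KO and 14.4 ± 1.495 (SD, n = 3) in palmitate at 24 h labelled KO.

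**Figure D1:**
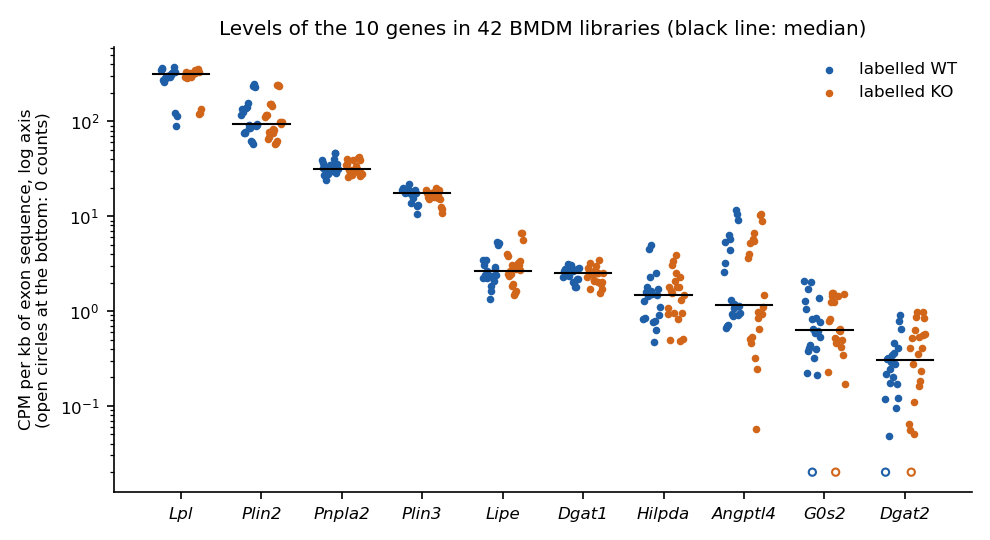
CPM per kb of exon sequence on a log axis for each of the 10 genes in the 42 libraries; points are libraries coloured by genotype label, black lines are medians, and open circles at the bottom are libraries with 0 counts. Medians run from 313 CPM per kb for Lpl to 0.301 CPM per kb for Dgat2, and Angptl4 and Lpl split into separate bands of libraries.

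Palmitate changed few genes, and the coat gene Plin2 and the LPL inhibitor Angptl4 led them. At 2 h, 2 of the 9 tested genes rose and 0 fell under both labels, where 0.275% of all tested genes were called in WT (0.103% higher) and 0.112% in KO (0.0774% higher). At 24 h the same 2 genes and Pnpla2 rose, 3 of 9 under both labels, where 0.852% (0.671% higher) and 0.877% (0.637% higher) of all tested genes were called. By p-value Plin2 was at rank 1 and Angptl4 at rank 2 of the 11624 genes in all 4 palmitate comparisons. The median log2 fold change of the 9 genes was 0.14 in WT and 0.06 in KO at 2 h, and 0.31 in WT and 0.04 in KO at 24 h, beside 0.00 for all tested genes. LPS changed much of the transcriptome. At 2 h, 3 of 9 genes were called under each label, beside 23.1% of all genes in WT and 23.9% in KO. At 24 h, 4 of 9 were called under each label, beside 39.5% and 40.9% of all genes, shares not far from the background. The median log2 fold change of the 9 genes with LPS was 0.20 in WT and 0.12 in KO at 2 h and 0.15 and −0.14 at 24 h, beside −0.01 for all tested genes. Marker genes moved with LPS at 24 h as well. The summed macrophage markers were at 7691 to 8747 CPM in WT and 7682 to 7950 CPM in KO, against 5032 to 5078 and 4918 to 5068 CPM in Control, and 4 of 6 rose and 2 fell under each label. The summed granulocyte precursor markers were at 30.6 to 33.4 CPM in WT and 42.05 to 63.2 CPM in KO, against 51.4 to 61.2 and 128 to 198 CPM in Control, and 3 of 5 fell in WT and 4 of 5 in KO. Their part in the LPS results was not tested. Some marker sums differed with palmitate too. The 6 stromal markers listed below summed to 1.16 to 8.04 CPM in KO at 24 h, against 41.8 to 137 CPM in Control. In WT these ranges overlapped. The granulocyte precursor sum in WT at 2 h was 43.1 to 55.7 CPM, against 19.3 to 32.9 CPM in Control. In KO these ranges overlapped. In WT at 24 h the granulocyte precursor sum was 61.23 to 83.7 CPM, against 51.4 to 61.20 CPM in Control. The macrophage sum there was 5149 to 5371 CPM, against 5032 to 5078 CPM in Control. Both overlapped Control in KO at 24 h. The part of these sums in the palmitate results was not tested. Palmitate and LPS of a given time and genotype share their Control libraries.

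**Figure D2:**
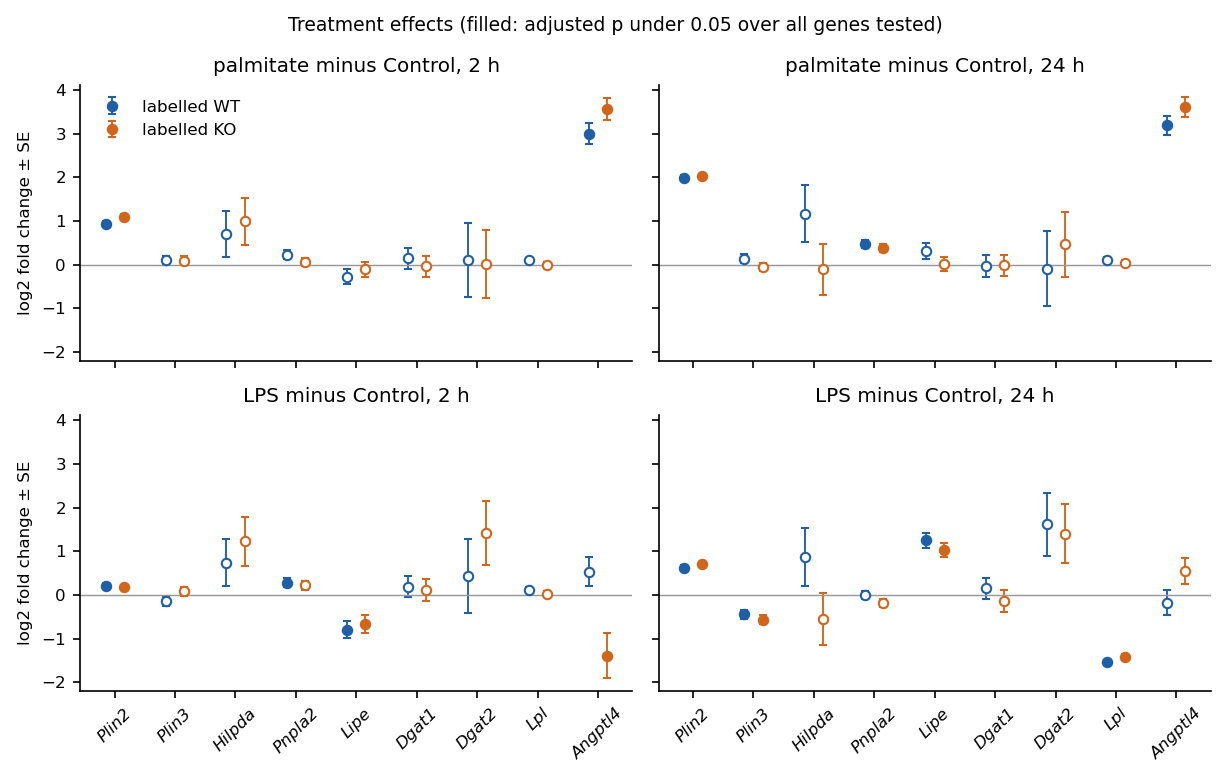
Log2 fold change against the time-matched Control of each genotype label, with its SE, for the 9 tested genes; filled points have an adjusted p under 0.05. Palmitate gives filled points for Plin2 and Angptl4 at both times and for Pnpla2 at 24 h, and LPS at 24 h for Plin2, Plin3, Lipe and Lpl.

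Plin2 (ENSMUSG00000028494, chr4:86648386-86670060, minus strand, GRCm38) encodes the perilipin that coats droplets of most cell types. In Control at 24 h it was at 216, 212 and 202 CPM in libraries labelled WT, and palmitate at 24 h brought it to 827, 861 and 815 CPM. The libraries labelled KO gave 202, 207 and 216 CPM in Control and 856, 843 and 837 CPM in palmitate. Control and palmitate did not overlap, and the ranges of the labels did within each condition. The increase was 3.98-fold in WT (log2 fold change 1.99, SE 0.06, adjusted p = 1.29e-30) and 4.05-fold in KO (2.02, SE 0.06, adjusted p = 6.55e-31). At 2 h Plin2 moved from 265, 266 and 271 CPM to 489, 498 and 545 CPM in WT. In KO it moved from 230, 274 and 240 CPM to 541, 538 and 509 CPM. No palmitate library overlapped a Control library at this time either. The increase was 1.91-fold in WT (log2 fold change 0.93, SE 0.06, adjusted p = 8.72e-17) and 2.14-fold in KO (1.10, SE 0.06, adjusted p = 1.35e-19). The 24 h effect exceeded the 2 h effect by 0.99 on the log2 scale over both labels (SE 0.06, adjusted p = 8.5e-18), in a comparison where 1.28% of all genes were called. These are TMM-scaled shares of the counted reads in each library, which give neither cell number nor RNA per cell.

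LPS raised Plin2 by less. At 24 h WT libraries held 317, 329 and 320 CPM and KO libraries 342, 332 and 346 CPM, all above every Control library of that time. The log2 fold change was 0.62 in WT (SE 0.06, adjusted p = 1.59e-12) and 0.70 in KO (SE 0.06, adjusted p = 2e-14). At 2 h LPS gave 299.8, 326 and 298 CPM in WT and 292, 262 and 287 CPM in KO, and in KO these overlapped the Control. The log2 fold change of 0.20 in WT (adjusted p = 0.00806) was not called without the second WT LPS library (0.16, adjusted p = 0.0915). That of 0.17 in KO (adjusted p = 0.0278) was not called in 4 of 6 fits that left out a library, in which it lay between 0.11 and 0.14. Palmitate libraries exceeded LPS libraries by 0.83 on the log2 scale at 2 h (SE 0.04, adjusted p = 5.42e-23) and by 1.34 at 24 h (SE 0.04, adjusted p = 2e-32).

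**Figure D3:**
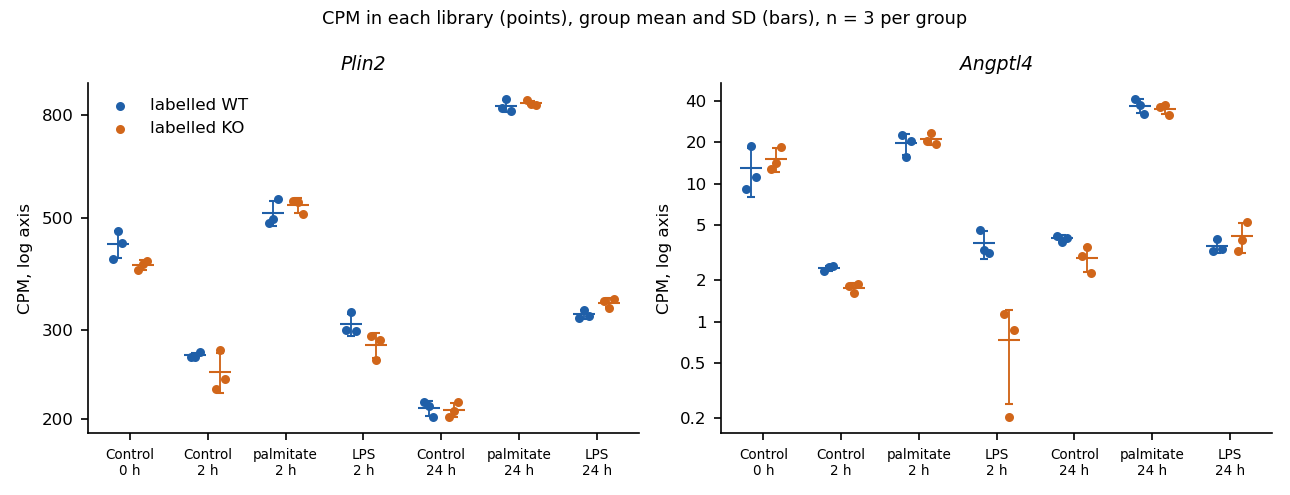
CPM of Plin2 and Angptl4 on log axes in each library (points) with the group mean and SD (n = 3), in 7 conditions under both genotype labels. Palmitate groups stand highest at both times in both panels, Control at 0 h lies above the later Control groups, and the libraries labelled KO at LPS 2 h hold the lowest Angptl4 values.

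The promoter windows of Plin2 and Pnpla2, which rose with palmitate at 24 h, of Cpt1a, a textbook PPAR target that also rose, and of Plin3, which was not called with palmitate, are shown so that the genes can be read side by side. Each runs from 250 bases before to 50 bases from the annotated start, 5′ to 3′ on the gene's strand (RefSeq, GRCm38.p6), and 6 of the 10 genes had an entry. Angptl4, Dgat1, Dgat2 and Lpl had none. Capitals mark the hexamer AGGTCA, the core that PPARs and other nuclear receptors bind in repeats, read on either strand (TGACCT on the other), and the E-box CACGTG.
Plin2 (chr4:86670010-86670309, - strand): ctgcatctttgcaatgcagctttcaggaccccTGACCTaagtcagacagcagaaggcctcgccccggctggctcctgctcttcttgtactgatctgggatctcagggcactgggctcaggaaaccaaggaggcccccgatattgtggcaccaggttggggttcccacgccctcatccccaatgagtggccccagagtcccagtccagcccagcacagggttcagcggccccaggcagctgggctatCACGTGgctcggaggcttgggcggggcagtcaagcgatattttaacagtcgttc
Pnpla2 (chr7:141454938-141455237, + strand): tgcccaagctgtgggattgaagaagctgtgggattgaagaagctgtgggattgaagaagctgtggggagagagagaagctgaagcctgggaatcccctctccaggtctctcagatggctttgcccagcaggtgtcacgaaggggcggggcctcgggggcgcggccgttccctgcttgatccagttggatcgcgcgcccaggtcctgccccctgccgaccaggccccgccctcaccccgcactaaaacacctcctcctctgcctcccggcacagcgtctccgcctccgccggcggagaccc
Cpt1a (chr19:3323051-3323350, + strand): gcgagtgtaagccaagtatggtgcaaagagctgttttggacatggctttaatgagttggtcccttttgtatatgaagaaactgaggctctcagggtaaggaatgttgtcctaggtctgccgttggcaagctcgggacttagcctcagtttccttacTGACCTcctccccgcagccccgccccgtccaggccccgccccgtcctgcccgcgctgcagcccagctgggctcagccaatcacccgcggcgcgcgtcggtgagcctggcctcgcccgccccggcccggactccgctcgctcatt
Plin3 (chr17:56290462-56290761, - strand): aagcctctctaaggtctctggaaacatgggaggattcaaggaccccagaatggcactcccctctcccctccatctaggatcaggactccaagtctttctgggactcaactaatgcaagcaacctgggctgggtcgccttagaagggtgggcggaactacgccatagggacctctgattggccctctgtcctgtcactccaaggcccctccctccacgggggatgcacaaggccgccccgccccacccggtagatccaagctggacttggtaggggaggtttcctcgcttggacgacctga
The hexamer occurred on the reverse strand in Plin2, 218 bases before the start, and in Cpt1a, 94 bases before it, and 16.3% of all 32851 promoter windows held it. The E-box of Plin2 began 4 bases before the start, and 7.15% of all windows held one. The window of Lipe, which is not shown and was not called with palmitate, held an E-box too, 155 bases before its start. The windows of Plin3 and Lipe lie within the gene spans given below, and not at the upstream ends of those spans. A direct repeat of the hexamer with 1 base between, the arrangement that PPARs bind, was in 13 of all windows (0.0396%). It was in none of the windows shown, and the Pnpla2 and Plin3 windows held no match. The windows of Hilpda and G0s2, not shown, held no match either. These letters describe the windows only.

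Plin3 (ENSMUSG00000024197, chr17:56277476-56292873, minus strand) encodes the perilipin that moves between cytosol and new droplets. It was called in neither palmitate comparison of either label. With LPS at 24 h WT libraries fell from 63.7, 65.5 and 59.3 CPM to 40.4, 48.8 and 49.1 CPM. In KO the values were 74.5, 65.8 and 58.5 CPM in Control and 47.1, 44.8 and 40.995 CPM in LPS. Every LPS library was below every Control library. The log2 fold change was −0.44 in WT (SE 0.10, adjusted p = 0.000302) and −0.57 in KO (SE 0.10, adjusted p = 5.03e-06), and it was 0.47 lower than the 2 h effect over both labels (SE 0.10, adjusted p = 9.3e-05). The 2 perilipins therefore moved in opposite directions with LPS at 24 h, and the Plin2 to Plin3 ratio per kb went from 3.602 ± 0.0945 to 7.58 ± 0.764 in WT and from 3.43 ± 0.529 to 8.30 ± 0.686 in KO (SD, n = 3 each). With palmitate at 24 h that ratio was 13.05 ± 0.0767 in WT (SD, n = 3).

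Pnpla2 (ENSMUSG00000025509, chr7:141455198-141460743, plus strand), the first lipase of droplet breakdown, rose little with palmitate and was called at 24 h only. At 24 h WT libraries held 104, 97.0 and 91.5 CPM in Control and 121, 139.8 and 141 CPM in palmitate. KO libraries held 102, 90.9 and 94.4 CPM in Control and 124, 128 and 119 CPM in palmitate. The groups did not overlap under either label. The log2 fold change was 0.46 in WT (SE 0.09, adjusted p = 0.00241), which missed the threshold without the third WT Control library (0.42, adjusted p = 0.0554). In KO it was 0.37 (SE 0.09, adjusted p = 0.0273), and 5 of 6 fits that left out a library missed the threshold, with values from 0.34 to 0.40 and an adjusted p of up to 0.188. At 2 h the log2 fold change was 0.23 in WT (interval 0.04 to 0.42, adjusted p = 0.536) and 0.06 in KO (interval −0.12 to 0.25, adjusted p = 1.00), neither called. The difference between the times with palmitate was not called, except in an edgeR fit of the compared libraries only (0.27, adjusted p = 0.0476). LPS raised Pnpla2 in WT at 2 h, from 82.3, 80.1 and 73.3 CPM to 91.6, 105 and 89.5 CPM (log2 fold change 0.28, adjusted p = 0.0265), a call lost in 3 of 6 fits that left out a library (0.20 to 0.29). In KO the log2 fold change of 0.22 (adjusted p = 0.0986) was not called, except without the second KO LPS library (0.30, adjusted p = 0.0352). Palmitate libraries exceeded LPS libraries at 24 h by 0.52 (SE 0.06, adjusted p = 1.37e-09).

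Lipe (ENSMUSG00000003123, chr7:25379527-25398710, minus strand), the hormone-sensitive lipase that acts after PNPLA2, fell early and rose late with LPS and was not called with palmitate. At 2 h WT libraries held 14.1, 20.2 and 15.6 CPM in Control and 7.87, 10.9 and 9.47 CPM in LPS. In KO these were 13.8, 15.4 and 14.4 CPM and 8.73, 9.12 and 9.52 CPM. At 24 h WT rose from 13.8, 13.03 and 12.1 CPM to 31.5, 29.6 and 30.9 CPM. KO rose from 16.4, 18.04 and 18.97 CPM to 38.9, 38.8 and 32.8 CPM. None of the 4 pairs of groups overlapped, below Control at 2 h and above it at 24 h. The log2 fold changes were −0.80 in WT (SE 0.19, adjusted p = 0.00127) and −0.66 in KO (SE 0.20, adjusted p = 0.0108) at 2 h. They were 1.25 in WT (SE 0.17, adjusted p = 1.83e-08) and 1.04 in KO (SE 0.16, adjusted p = 3.32e-07) at 24 h. The difference between the times was 1.87 over both labels (SE 0.18, adjusted p = 1.54e-12), where 46.3% of all genes were called. Pnpla2 was not called with LPS at 24 h, and the per-kb ratio of Pnpla2 to Lipe was 19.9 ± 2.38 in WT at LPS 2 h and 6.14 ± 0.908 at LPS 24 h (SD, n = 3 each), and 21.6 ± 4.29 and 4.47 ± 0.512 in KO. Lipe shares 918 exon bases with an antisense gene, 4732471J01Rik, which held at most 4 counts in any library, and the strand setting of the counting is not given.

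The inhibitors of PNPLA2 were near the limit of these libraries. Without TMM scaling of the library totals, 3 counts correspond to 0.387 to 1.05 CPM. With TMM scaling these values shift, and 3 counts in the first KO library of LPS at 2 h gave 1.14 CPM. Hilpda (ENSMUSG00000043421, chr6:29272488-29275446, plus strand), a hypoxia-inducible droplet protein, held 3 to 27 counts and 0.514 to 5.55 CPM, and was called in none of the comparisons. Its highest library was in LPS at 2 h labelled WT, beside 2 libraries of that group at 1.79 and 1.67 CPM. G0s2 (ENSMUSG00000009633, chr1:193272161-193273217, minus strand) was at or under 3 counts in 24 of 42 libraries and at 0 in 2, and reached at most 1.81 CPM, in Control at 0 h labelled WT. It overlaps Lamb3 on the other strand with 0 shared exon bases. It was not tested. Among its groups, picked after their values were seen, KO libraries held 6, 7 and 8 counts in Control at 2 h and 0, 2 and 2 with LPS, and Control libraries at 0 h held 10, 7 and 7 counts in WT and 1, 4 and 4 in KO. These pairs of groups did not overlap, at counts where single reads weigh heavily.

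The synthesis genes were low, and neither was called with a treatment against Control. Dgat1 (ENSMUSG00000022555, chr15:76502015-76511953, minus strand), the acyltransferase that esterifies diacylglycerol in the endoplasmic reticulum, lay between 4.71 and 10.5 CPM in all 42 libraries and was called in none of the comparisons. Dgat2 (ENSMUSG00000030747, chr7:99153658-99182719, minus strand), the unrelated enzyme with the same reaction, held 0 to 20 counts. With LPS at 24 h it was at 2.40, 2.81 and 1.99 CPM in WT, against 1.40, 0.857 and 0.291 CPM in Control. In KO it was at 2.98, 2.61 and 1.76 CPM against 0.497, 1.64 and 0.566 CPM. All LPS libraries were above their Controls, but the log2 fold changes of 1.61 in WT (interval 0.18 to 3.05, adjusted p = 0.0686) and 1.41 in KO (interval 0.03 to 2.79, adjusted p = 0.0983) were not called, the latter except without the second KO Control library (2.14, adjusted p = 0.0470). The summed counts were 44 against 12 in WT, a ratio per total of 3.11 (95% exact interval 1.61 to 6.46), and 46 against 15 in KO, a ratio of 2.56 (1.40 to 4.94); these intervals cover counting error only. Over both labels palmitate libraries at 24 h were below LPS libraries (log2 fold change −1.33, SE 0.48, adjusted p = 0.0177), and this missed the threshold without the second WT palmitate library (−1.18, adjusted p = 0.0517).

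Lpl (ENSMUSG00000015568, chr8:68880491-68907448, plus strand) fell with LPS, late. WT libraries held 3263, 3337 and 3426 CPM in Control at 24 h and 1285, 942 and 1205 CPM in LPS. KO libraries held 3397, 3682 and 3506 CPM in Control and 1248, 1289 and 1414 CPM in LPS. The LPS groups lay below all 36 other libraries. The log2 fold change was −1.55 in WT (SE 0.07, adjusted p = 3.82e-25) and −1.42 in KO (SE 0.07, adjusted p = 8.27e-24). At 2 h LPS gave a log2 fold change of 0.12 in WT (interval −0.01 to 0.26, adjusted p = 0.198) and 0.03 in KO (interval −0.10 to 0.16, adjusted p = 0.813), neither called, and the 24 h effect was lower by 1.56 (SE 0.07, adjusted p = 1.75e-25). Lpl was not called with palmitate at either time.

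**Figure D4:**
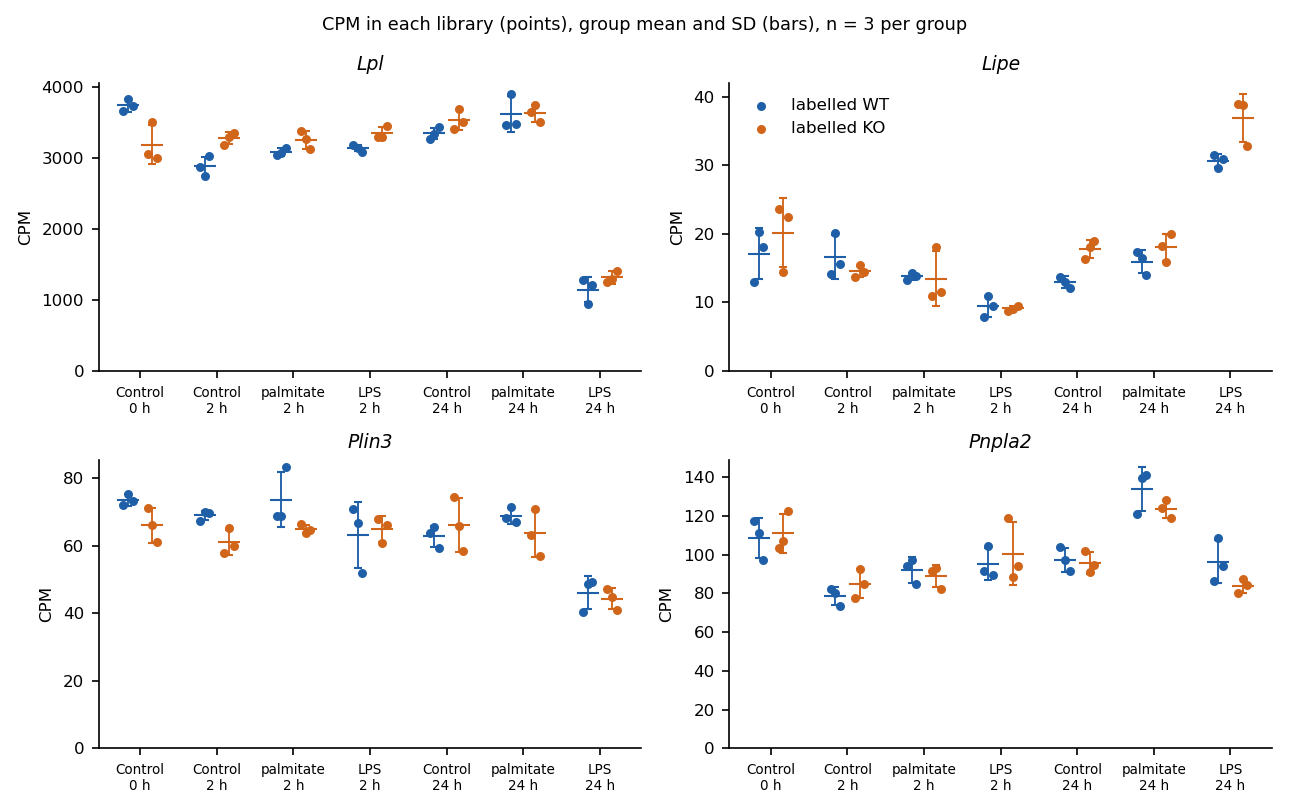
CPM of Lpl, Lipe, Plin3 and Pnpla2 in each library (points) with the group mean and SD (n = 3), on linear axes from 0. LPS at 24 h stands apart under both labels, low for Lpl (942 to 1414 CPM) and Plin3 and high for Lipe, and palmitate at 24 h is highest for Pnpla2.

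Angptl4 (ENSMUSG00000002289, chr17:33773750-33781830, minus strand) encodes the secreted inhibitor of LPL and had the largest fold changes of the set with palmitate. At 2 h WT libraries went from 2.32, 2.48 and 2.52 CPM to 22.7, 15.8 and 20.5 CPM. KO libraries went from 1.81, 1.61 and 1.87 CPM to 20.4, 23.5 and 19.4 CPM. At 24 h WT libraries went from 4.21, 3.77 and 4.08 CPM to 41.2, 37.1 and 32.3 CPM. KO libraries went from 2.98, 3.46 and 2.27 CPM to 36.1, 37.5 and 31.7 CPM. The lowest palmitate library, at 15.8 CPM, was above the highest Control library of 2 or 24 h, at 4.21 CPM. The increase was 7.98-fold in WT (log2 fold change 3.00, SE 0.24, adjusted p = 8.59e-13) and 11.8-fold in KO (3.57, SE 0.25, adjusted p = 9.88e-15) at 2 h. It was 9.17-fold in WT (3.20, SE 0.22, adjusted p = 1.35e-15) and 12.2-fold in KO (3.61, SE 0.23, adjusted p = 8.62e-17) at 24 h. Unlike Plin2, whose effect grew with time, Angptl4 had a difference between the times of 0.12 (interval −0.44 to 0.68, adjusted p = 0.944), which was not called; whether the 2 genes differ in this was not tested. Per kb, Lpl exceeded Angptl4 by a ratio of 282 ± 18.7 in Control and 33.4 ± 4.36 in palmitate at 24 h in WT (SD, n = 3 each).

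LPS did not raise Angptl4 to such levels. At 24 h it lay between 3.25 and 5.27 CPM over both labels, and neither log2 fold change was called. At 2 h WT libraries labelled LPS held 4.65, 3.29 and 3.16 CPM (13, 16 and 17 counts), against 2.32 to 2.52 CPM in Control (log2 fold change 0.53, interval −0.12 to 1.19, adjusted p = 0.267). KO libraries held 1.14, 0.203 and 0.865 CPM (3, 1 and 4 counts), under each of their Controls (log2 fold change −1.39, SE 0.52, adjusted p = 0.0443). These counts are at the floor of 3, and the call was lost in 5 of 6 fits that left out a library, with values from −1.70 to −0.85, with DESeq2 (−1.42, adjusted p = 0.0688) and with no filter on low counts (−1.41, adjusted p = 0.0896). Palmitate libraries exceeded LPS libraries by 3.71 at 2 h (SE 0.21, adjusted p = 4.81e-21) and by 3.22 at 24 h (SE 0.15, adjusted p = 1.63e-24), log2 fold changes over both labels. In these comparisons 3 of 9 genes rose above LPS at 2 h, beside 15.7% of all genes, and 7 of 9 were called at 24 h, beside 51.8%. Lipe was higher with palmitate than with LPS at 2 h by 0.54 (SE 0.14, adjusted p = 0.00187) and lower at 24 h (−0.98, SE 0.11, adjusted p = 1.58e-10). At 24 h Lpl was higher by 1.56 (SE 0.05, adjusted p = 3.92e-32) and Plin3 by 0.55 (SE 0.07, adjusted p = 2.58e-09).

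The Control libraries themselves differed with time, so that the folds of palmitate and LPS are relative to a moving base. From 0 h to 2 h, 4 of 9 genes were called lower and 0 higher in the mean of both labels, beside 16.7% of all genes called (7.36% lower), and from 0 h to 24 h 3 were called lower and 0 higher, beside 16.5% (8.62% lower). At 0 h Plin2 held 415, 471 and 446 CPM in WT and 394, 406 and 412 CPM in KO, above every later Control library. It fell by 0.72 on the log2 scale at 2 h (SE 0.04, adjusted p = 7.51e-20) and by 1.02 at 24 h (SE 0.04, adjusted p = 2.18e-24), where it was at rank 1 by p-value of all genes. Angptl4 at 0 h held 9.23, 18.8 and 11.2 CPM in WT and 12.8, 14.2 and 18.5 CPM in KO, and fell by 2.75 at 2 h (SE 0.18, adjusted p = 1.68e-17) and by 2.06 at 24 h (SE 0.17, adjusted p = 1.6e-13). In WT its levels at 0 h overlapped those of palmitate at 2 h, which began at 15.8 CPM. In KO they lay below those of palmitate at 2 h, which began at 19.4 CPM. Under both labels the 0 h levels of Angptl4 lay below those of palmitate at 24 h. Plin2 with palmitate at 2 h was above all libraries at 0 h. Pnpla2 fell by 0.43 at 2 h (SE 0.07, adjusted p = 1.21e-06) in the mean of both labels. For Lpl that mean was −0.17 (SE 0.05, adjusted p = 0.00819), but the labels went apart: WT libraries moved from a mean of 3735 to 2881 CPM with no overlap, and KO libraries from 3183 to 3277 CPM with overlap. The call was lost without the second KO Control library at 0 h (−0.13, adjusted p = 0.0563), and the difference between the labels in this step was not tested. At 24 h Pnpla2 was lower by a log2 fold change of −0.19 (adjusted p = 0.0373), a call lost in 7 of 12 fits that left out a library (−0.18 to −0.14). The check genes Tnf, Il1b and Acod1, all raised by LPS, rose in Control at 2 h too. Their log2 fold changes over 0 h were 2.10 (SE 0.08, adjusted p = 1.34e-26), 2.85 (SE 0.45, adjusted p = 1.92e-06) and 2.05 (SE 0.12, adjusted p = 1.95e-19). At 24 h only Acod1 of these was called (0.66, adjusted p = 0.000308). What was done to Control cells between 0 h and 2 h is not stated.

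Between the genotype labels, few differences were called. In Control at 0 h 1 of 9 genes was called, beside 12.5% of all genes. Lpl was at 3058, 3496 and 2995 CPM in libraries labelled KO and at 3657, 3827 and 3720 CPM in those labelled WT, with no overlap (log2 fold change −0.23, SE 0.07, adjusted p = 0.0154). The call was lost without the second WT, the first KO or the third KO library (−0.21 to −0.18, adjusted p of up to 0.130). In later conditions Lpl had log2 fold changes above 0: in Control at 2 h it was 0.19 (interval 0.05 to 0.32, adjusted p = 0.247) and in LPS at 24 h 0.20 (interval 0.07 to 0.34, adjusted p = 0.263), neither called. An edgeR fit of the compared libraries only did call Lpl in Control at 2 h (0.19, adjusted p = 0.00754), opposite in direction to 0 h. In LPS at 2 h 1 of 9 genes was called, beside 0.465% of all genes. This was Angptl4, with the 3, 1 and 4 counts in KO and 13, 16 and 17 counts in WT given above (log2 fold change −2.39, SE 0.47, adjusted p = 0.00375). Summed over libraries it had 46 counts in WT and 8 in KO, a ratio per total of 5.31 (95% exact interval 2.48 to 13.03, counting error only). The call was lost without the second KO LPS library (−1.86, adjusted p = 0.0776) and in a fit of these 6 libraries alone (−2.38, adjusted p = 0.181). The test of the difference in the LPS effect on Angptl4 between the labels at 2 h did not reach the threshold (−1.92, interval −3.16 to −0.69, adjusted p = 0.365).

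In the other 5 conditions the edgeR test called 0 of 9 genes (0 with DESeq2), beside 0.490% of all genes in Control at 2 h, 0.146% in palmitate at 2 h, 0.120% in Control at 24 h, 0.0688% in palmitate at 24 h and 0.146% in LPS at 24 h. At an unadjusted p under 0.05 by edgeR there were 1, 0, 1, 0 and 2 of the 9, in that order. Of all 11624 genes, 1172, 1032, 587, 891 and 1056 were under that unadjusted p. With palmitate the log2 difference of Plin2 between KO and WT had an interval of −0.06 to 0.17 at 2 h and −0.09 to 0.13 at 24 h, so that a difference above 0.17 on the log2 scale lay outside both. The difference in its palmitate effect was 0.16 at 2 h (interval −0.00 to 0.33, adjusted p = 0.998) and 0.02 at 24 h (interval −0.14 to 0.19, adjusted p = 1.00). For Angptl4 it was 0.57 at 2 h (interval −0.23 to 1.37, adjusted p = 0.998) and 0.41 at 24 h (interval −0.28 to 1.10, adjusted p = 1.00). None of the 4 tests of such a difference called any of the 9 genes by edgeR or DESeq2 (at an unadjusted p under 0.05, Angptl4 in LPS at 2 h only). Over all genes, edgeR called 0 for palmitate at 2 h (486 at an unadjusted p under 0.05), 0 for palmitate at 24 h (411), 0 for LPS at 2 h (810) and 1 for LPS at 24 h (0.00860%). Lipe in Control at 24 h was 0.48 higher in KO on the log2 scale (interval 0.12 to 0.84, adjusted p = 0.899), with no overlap, and was not called. Some cell type markers were called between labels. In Control at 0 h these were 3 of 4 tested stromal markers (Col1a1, Col1a2 and Col3a1, higher in KO), with a sum over the 6 listed, Dcn, Pdgfra and Pdgfrb included, of 43.1 to 70.7 CPM in KO and 0.905 to 1.42 CPM in WT. Of the macrophage markers 4 of 6 were called there, Cd68 (log2 fold change −0.47), Adgre1 (−0.31), Mertk (−0.24) and Csf1r (0.28), as were the B cell marker Cd79b (−0.9995) and 1 of 5 granulocyte precursor markers, Ltf (0.86). In LPS at 2 h 0 of 4 stromal markers were called by edgeR, at sums of 3.04 to 159 CPM in KO and 1.30 to 2.15 CPM in WT, and 2 of 5 granulocyte precursor markers were higher in KO, Ngp (1.86) and Ltf (1.69). The macrophage marker Itgam was called there too, higher in KO (0.23). The sums of the granulocyte precursor list (Elane, Mpo, Prtn3, Ngp, Camp, Ltf, S100a8 and S100a9) were 118 to 204 CPM in KO and 45.4 to 66.1 CPM in WT in LPS at 2 h, and 73.0 to 81.5 and 47.2 to 54.4 CPM in Control at 0 h. With palmitate at 24 h the stromal sums of the labels overlapped (1.16 to 8.04 CPM in KO and 0.865 to 12.2 CPM in WT). The granulocyte precursor sums were higher in KO without overlap in every condition. With palmitate they were 85.2 to 147 CPM in KO and 43.1 to 55.7 CPM in WT at 2 h. At 24 h with palmitate they were 106 to 162 CPM in KO and 61.2 to 83.7 CPM in WT. Their part in the genotype results was not tested.

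**Figure D5:**
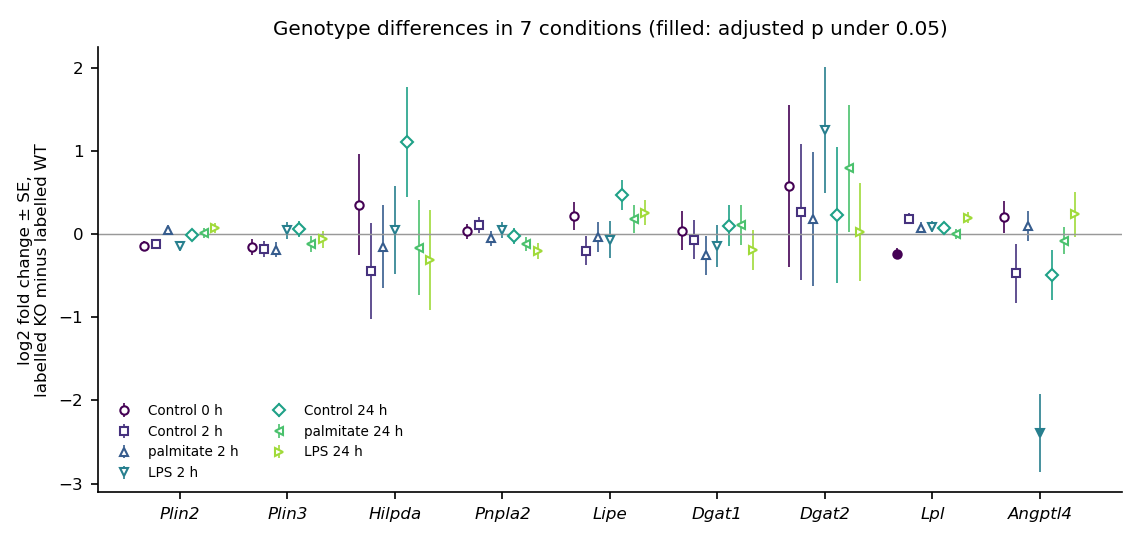
Log2 fold change of libraries labelled KO against those labelled WT, with its SE, for the 9 tested genes in 7 conditions; filled symbols have an adjusted p under 0.05. Only Lpl in Control at 0 h (−0.23) and Angptl4 in LPS at 2 h (−2.39) are filled, and Hilpda and Dgat2, at few counts, have the widest errors.

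Other genes of lipid handling were read from lists of 72 genes, of which 46 were tested. With palmitate 1 rose and 0 fell at 2 h under both labels, and at 24 h 6 rose in WT and 4 in KO, with 0 lower. Of all tested genes, 0.275% in WT and 0.112% in KO were called at 2 h, and 0.852% and 0.877% at 24 h. The median log2 fold change of the 46 was 0.08 in WT and 0.04 in KO at 24 h, beside 0.00 for all tested genes. Of 6 tested PPAR targets outside droplets, 4 rose in WT and 3 in KO at 24 h. Cpt1a, the carnitine transferase that admits fatty acids to mitochondria, rose by 0.50 in WT (SE 0.08, adjusted p = 0.000202) and 0.60 in KO (SE 0.08, adjusted p = 1.7e-06) at 2 h. At 24 h it rose by 0.98 (SE 0.08, adjusted p = 2.34e-13) and 0.92 (SE 0.08, adjusted p = 2.09e-12). Acaa2, the thiolase of mitochondrial beta-oxidation, rose at 24 h by 0.87 in WT (SE 0.15, adjusted p = 0.000293) and 0.81 in KO (SE 0.15, adjusted p = 0.000775). Of 10 tested genes of droplet coat and shape other than the perilipins above, 0 were called with palmitate at any time. Plin1, Plin4, Plin5 and Cidec did not pass the filter on low counts.

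With LPS the shares of the lists were nearer to those of all genes. At 2 h 6 of the 46 rose and 5 fell in WT, and 7 rose and 7 fell in KO, 23.9% and 30.4% of those tested beside 23.1% and 23.9% of all genes. Hif1a, the hypoxia-inducible transcription factor, rose by 0.55 in WT and 0.76 in KO, and Sel1l, which LPL needs to leave the endoplasmic reticulum, by 0.24 and 0.34. Rxra, the partner receptor of the PPARs, had log2 fold changes of −0.34 and −0.45 and Spart, a droplet-associated protein, of −0.60 and −0.74. Their adjusted p-values were all at most 0.00238. At 24 h 10 rose and 14 fell in WT, and 14 rose and 14 fell in KO, 52.2% and 60.9% of those tested beside 39.5% and 40.9% of all genes. All 6 tested genes of neutral lipid hydrolysis outside the set fell in WT and 5 of 6 in KO, with a list median of −0.61 and −0.68 beside −0.01 for all tested genes. Lipa, the lysosomal acid lipase, had the smallest p-values, with log2 fold changes of −0.93 in WT (SE 0.05, adjusted p = 4.77e-22) and −0.89 in KO (SE 0.05, adjusted p = 1.9e-21). The others were Abhd12, Nceh1, Mgll, Ddhd2 and Abhd5, named after their values were seen, and Ddhd2 was the gene not called in KO. Mgll, the monoacylglycerol lipase, had the largest change of the list, with log2 fold changes of −1.35 (SE 0.50, adjusted p = 0.0285) and −2.22 (SE 0.56, adjusted p = 0.00105). The macrophage and granulocyte precursor markers given above moved in the same comparisons. Lpin1, the phosphatase that makes diacylglycerol, had log2 fold changes of −1.83 (SE 0.15, adjusted p = 1.88e-14) and −2.08 (SE 0.16, adjusted p = 5.57e-16). Nr1h3, the liver X receptor alpha, rose by 2.06 (SE 0.12, adjusted p = 9.24e-20) and 2.30 (SE 0.12, adjusted p = 1.3e-21). Hif1a rose at 24 h as well, by 1.12 in WT (SE 0.10, adjusted p = 4.32e-13) and 0.89 in KO (SE 0.10, adjusted p = 4.26e-10). Other regulators, also named after their values were seen, fell under both labels. Pparg had log2 fold changes of −2.15 in WT and −2.95 in KO. Epas1, another hypoxia-inducible factor, had −3.18 and −2.35, and Rxra had −0.54 and −0.47. Between labels the lists were called in Control at 0 h only, with 3 higher and 7 lower in KO (21.7% of those tested, beside 12.5% of all genes). Lpin2 was higher by 0.58 (adjusted p = 2.62e-07) and Apoc2, the activator of LPL, by 0.76 (adjusted p = 0.00754), and Nceh1 and Abhd12 were lower with log2 fold changes of −0.34 (adjusted p = 1.4e-05) and −0.43 (adjusted p = 2.2e-05).

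Across the 14 group means the genes of the set followed different partners. Among 11042 genes, Plin2 was most like Cpt1a (Pearson r = 0.967), Scarb2 (0.921) and Angptl4 (0.885), and Angptl4 was most like Cpt1a (0.9004), Klf11 (0.889) and Plin2 (0.885). Lpl was most like Mef2c (0.987), Apbb2 (0.987) and Cep170b (0.986), and Plin3 like Vsig4 (0.968), Gprc5c (0.960) and Cab39 (0.956). Lipe was most like Uqcr10 (0.964) and Rgs14 (0.959). Pnpla2 was most like March6 (0.887), Acaa2 (0.820) and Ube2g1 (0.817). For Hilpda the closest gene was Fosb (0.877), for Dgat1 Atp6ap2 (0.892) and for Dgat2 Psmd7 (0.947). Within the set the highest value was that of Plin3 and Lpl (0.907) and the lowest that of Plin3 and Dgat2 (−0.780). The points are group means that share libraries, scaling and treatments, so these values are descriptions of shape and carry no test.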

How the data were processed

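Total RNA of BMDM was ribodepleted and made into stranded paired-end libraries. The authors trimmed reads with fastp 0.19.11 and aligned them with STAR 2.7.3a to mm10, per the submitters' processing notes; the annotation release and whether the gene counting used the strand are not given in the sources used here. The deposited table holds raw counts per Ensembl gene (37310 identifiers, 12146 with no count, 0 without an identifier) in 42 libraries with totals of 2848793 to 7743442, and 0 columns of other samples. Positions and exon lengths came from GENCODE M21 (GRCm38). Symbols came from a separate list of gene names, which matched 32620 identifiers. Columns were assigned to groups by name; they carry no replicate number, so the library order follows the columns and pairs nothing.

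Counts were filtered with filterByExpr, scaled by TMM and fitted with edgeR 4.0.16 (limma 3.58.1, R 4.3.3) by the quasi-likelihood F test in 1 model of 14 group means, with Benjamini-Hochberg adjustment over 11624 genes; intervals are 95% and not adjusted. The code was tested on simulated data. Alternatives were RLE scaling, no filter on low counts, fits of the compared libraries only, DESeq2 1.42.0, each library left out in turn, and for the genotype comparisons the study's threshold (a change of over 1 on the log2 scale with an unadjusted p under 0.05).

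The members and lists were chosen with earlier results of these data known. Named were all 10 members, then from the other lists up to 2 genes per direction, treatment and time that were called under both labels with a mean of at least 1 CPM, ordered by the larger adjusted p, up to 2 per direction between the labels, the 3 genes most like each member over the 14 group means (some are not reported here), and Irf5, Lyz2, Tnf, Il1b and Acod1 as checks.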

Additional observations from a re-analysis of the deposited data

Results flagged for a closer look

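For these genes the effect of a treatment differed between 2 h and 24 h by the test of that difference (edgeR quasi-likelihood F test, adjusted over all genes, mean of both genotype labels). With palmitate the log2 fold change of Plin2 was higher at 24 h than at 2 h by 0.99. With LPS that of Plin2 was higher by 0.47 and that of Lipe by 1.87, the latter from below to above Control. The LPS effect was lower at 24 h for Lpl, with a difference of −1.56, for Plin3, with −0.47, and for Pnpla2, with −0.35. The Control libraries of the 2 times differ as well, so each difference contains the change of Control with time. Groups of 3 libraries were not screened for single deviating libraries.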

How the results depend on the processing

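No paired analysis was possible because the columns of the count table carry no replicate numbers. Of 69 log2 fold changes of the set that were called or printed, 52 kept their call and direction in every setting tried, and RLE scaling changed no call. Calls that changed when 1 library was left out stand beside their results. The log2 fold change of Lpl with LPS at 2 h in KO, near 0 and not called, changed sign to −0.0027 without the first KO Control library and −0.0052 without the third KO LPS library, with a highest value of 0.0395 when 1 library was left out. DESeq2 also lost the call of Angptl4 with LPS at 2 h in KO. Of the 9 genes, DESeq2 called 1 with palmitate at 2 h in WT, where it gave Angptl4 no adjusted p. LPS at 2 h in KO called 1 with no filter on low counts and 1 in a fit of the compared libraries only. That fit also called 1 between the labels in Control at 2 h, which was Lpl, higher in KO. It called 0 in LPS at 2 h, and 2 for the difference in time with palmitate, where Pnpla2 joined Plin2. It called Dgat2 with LPS at 24 h (1.63 in WT, adjusted p = 0.0184, and 1.41 in KO, adjusted p = 0.0303, edgeR). The study's threshold called 0 in Control at 0 h. With 1 library left out, 1 to 3 genes were called with LPS at 2 h in WT and 1 to 3 in KO, and 0 to 1 between the labels in Control at 0 h and 0 to 1 in LPS at 2 h. The causes were not tested.

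Counts over all genes moved more. With no filter, palmitate called 76 genes against 32 in WT and 34 against 13 in KO at 2 h, 167 against 99 and 182 against 102 at 24 h, and 309 against 149 for the difference in time. Between the labels, no filter gave 176 against 57 (Control 2 h), 130 against 17 (palmitate 2 h), 190 against 54 (LPS 2 h), 55 against 14 (Control 24 h), 75 against 8 (palmitate 24 h) and 112 against 17 (LPS 24 h), and the tests of a different treatment effect 16, 9 and 43 against 0 and 26 against 1. Fits of the compared libraries only gave 83 and 21 with palmitate at 2 h, 226 in KO at 24 h, 285 for the difference in time, 235, 96, 23, 52, 20 and 9 between the labels in the same order, and 0 for the LPS effect at 24 h. DESeq2 gave 20 with palmitate at 2 h in KO, 35, 15 and 33 between the labels in palmitate at 2 h, palmitate at 24 h and LPS at 24 h, and 1 and 2 for the difference in the LPS effect. The study's threshold gave 384 against 1448 in Control at 0 h and 199, 159, 244, 138, 115 and 174 in the same order. Without 1 library, palmitate gave 9 to 32 (WT) and 6 to 10 (KO) at 2 h and 51 to 95 and 48 to 76 at 24 h, and the labels 731 to 1374 in Control at 0 h, 11 to 69 in Control at 2 h, 5 to 21 in palmitate at 2 h, 36 to 51 in LPS at 2 h, 7 to 11 in Control at 24 h, 4 to 24 in palmitate at 24 h and 9 to 27 in LPS at 24 h. Hilpda, G0s2 and Dgat2, at up to 27 counts, and Angptl4 with LPS are limited by depth.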
